A study of Mus musculus with 6 samples.

Results

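The mitochondrial ribosomal proteins were taken as all rows of the deposited gene table whose symbol starts with Mrpl or Mrps followed by a number. This rule found 78 genes of 19087, of which 49 carry large subunit names (Mrpl) and 29 carry small subunit names (Mrps). The rule used names alone and no measured value. RNA sequencing had been done on total RNA of kidneys from wild-type mice, 3 from the control group and 3 injected intraperitoneally with cisplatin, a platinum drug that injures the kidney tubule. The series asks which molecules make high-fat-fed mice more prone to acute kidney injury, and its design text names the comparison of control and cisplatin kidneys. The sources used here give no dose, time after injection, diet, age, sex or strain. They also do not say whether the 3 samples of a group were separate animals, and p-values therefore measure only the variation among those samples, which may be technical.

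Mitochondria hold their own ribosome, which translates the few proteins encoded by mitochondrial DNA, all of them core parts of the respiratory chain and the ATP synthase. Its RNAs are made inside the organelle, whereas its proteins are encoded in the nucleus, made in the cytosol and imported. The large subunit forms peptide bonds and carries the exit tunnel, and the small subunit reads the messenger RNA. Many of the proteins have relatives in bacterial ribosomes, and others are found only in mitochondria. The kidney tubule, above all the proximal tubule, is rich in mitochondria and depends on oxidative metabolism for transport.

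Library totals lay between 16725614 and 18523618 estimated counts. Havcr1, a marker of injured proximal tubule cells, lay at 420 to 1449 CPM (TMM-normalised counts scaled to library size) in the cisplatin libraries and at 2.14 to 3.23 CPM in the controls. All 78 genes had at least 210 counts in every library, and all 78 passed the filter on low counts. Levels compared between genes are given in TPM, which accounts for transcript length. On that scale the median member had a mean of 80.9 TPM over the 6 libraries, the lowest being Mrpl19 at 7.68 TPM and the highest Mrps21 at 476 TPM. The members lie on 17 chromosomes, 11 of them on chromosome 11 and 8 on chromosome 17.

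Most mitochondrial ribosomal protein transcripts were lower in the cisplatin kidneys, by modest amounts. Of the 78 genes, 44 (56.4%) fell and 2 (2.56%) rose, Mrpl33 and Mrps18b, while 32 were not called either way (edgeR quasi-likelihood test, adjusted p under 0.05 over 14392 genes tested). Among all genes tested, 22.2% were called lower and 23.1% higher. The median log2 fold change of the members was -0.28, a change of -17.6%, against 0.01 over all genes. Estimates were negative for 70 members and positive for 8, with standard errors from 0.07 to 0.17. None fell by 2-fold, and 4 fell by at least 1.5-fold. All 3 cisplatin libraries lay below all 3 controls for 50 members (64.1%) and above them for 3 (3.85%), against 28.4% and 29.2% of all genes tested. In whole kidney RNA, fewer cells of a type that expresses these genes and less of their RNA per cell cannot be told apart.

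**Figure D1:**
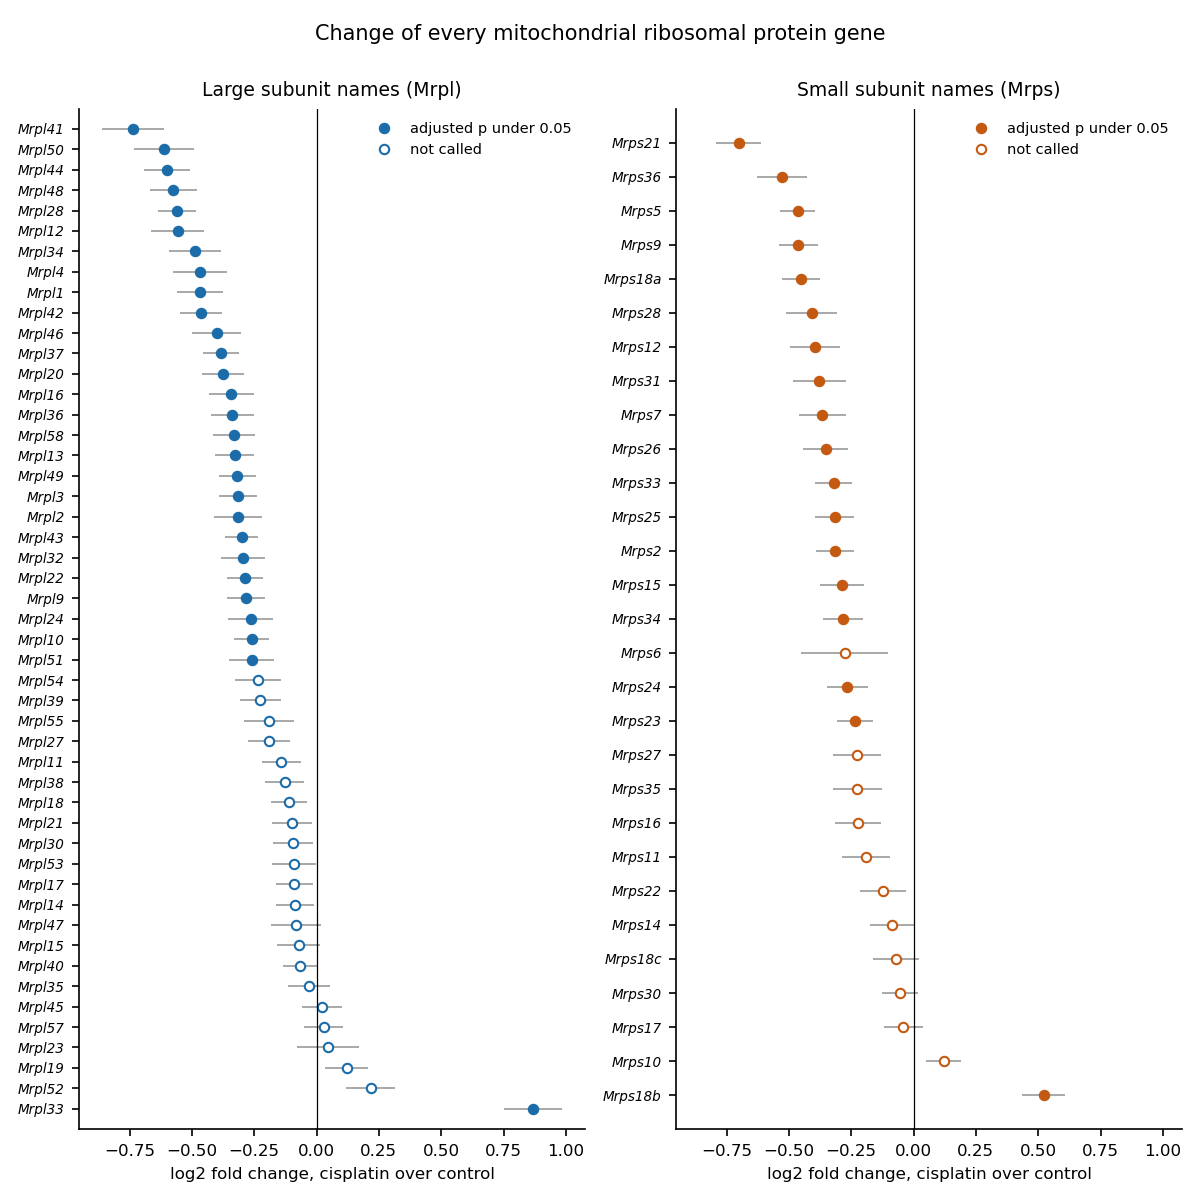
Log2 fold change of each of the 78 mitochondrial ribosomal protein genes, cisplatin over control (x axis), with genes in order of their change within the large subunit names (left) and the small subunit names (right). Points are edgeR estimates with TMM factors, bars are 1 standard error, and filled points had an adjusted p under 0.05. The bulk of both columns lies between -0.5 and 0, with Mrpl33 and Mrps18b standing apart on the right.

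The count of falls depended on how libraries were scaled. The counts above use TMM factors, which correct for differences in RNA composition between libraries. With library size alone, every log2 fold change shifted up by about 0.14. Then 20 members (25.6%) were lower and 5 higher, the median member was at -0.14, and the median over all genes was at 0.14. The backgrounds were then 15.8% lower and 32.2% higher. Relative to the median of all genes, the members sat lower by nearly the same distance under both scalings. The added calls among the higher genes were Mrpl52, Mrpl19 and Mrps10, named here because library size brought them past the threshold. The summed level of all members was 4733, 5171 and 4701 normalised CPM in controls 1 to 3 and 3988, 3818 and 4206 CPM in cisplatin 1 to 3, a change of -17.8%. As a share of all counts, the members held 0.464% ± 0.0195 (SD, n = 3) in the controls and 0.419% ± 0.00784 in cisplatin, a change of -9.72%. In the authors' TPM the sums overlapped, at 7683, 8109 and 7747 in the controls against 7860, 7617 and 7529 in cisplatin. The TPM total is fixed, and proximal tubule marker transcripts alone took 133540 ± 8887 TPM (SD, n = 3) of it in the controls and 31633 ± 8248 in cisplatin. The part of that change in the scaling was not tested.

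Large and small subunit genes gave similar counts and medians. By name, 27 of 49 large subunit genes (55.1%) fell and 1 rose, with a median log2 fold change of -0.26. Of 29 small subunit genes 17 (58.6%) fell and 1 rose, with a median of -0.28. With library size alone the falls were 13 and 7, and the medians -0.13 and -0.15. The ratio of summed large to summed small subunit counts, which needs no scaling between libraries, was 1.88, 1.91 and 1.91 in the controls and 1.90, 1.87 and 1.95 in cisplatin. These ranges overlapped. In TPM the same ratio was 1.70, 1.75 and 1.72 in the controls and 1.82, 1.78 and 1.84 in cisplatin, with all cisplatin libraries above all controls, so this comparison depended on the unit. Without cisplatin replicate 1, 10 small subunit genes fell in place of 17, and 21 large subunit genes in place of 27. Of all genes tested, 15.6% were then lower in place of 22.2%.

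Some genes carry names that do not match their place. The products of Mrps30 and Mrps18a sit in the large subunit, and that of Mrps36 is a part of the 2-oxoglutarate dehydrogenase complex rather than of the ribosome. Sorted by place, 28 of 51 large subunit genes fell with a median of -0.26, and 15 of 26 small subunit genes fell with a median of -0.28. Proteins with bacterial relatives (48 genes, 26 lower, 2 higher, median -0.27) and proteins found only in mitochondria (29 genes, 17 lower, none higher, median -0.28) had similar counts and medians. The 9 mitochondria-specific small subunit genes all had negative estimates, between -0.38 and -0.12, and 6 of them fell. With library size alone 14 of 51 large and 5 of 26 small subunit genes by place were lower. Of the genes with bacterial relatives 11 were then lower and 4 higher, and of the mitochondria-specific genes 8 were lower and 1 higher. Of the 9 mitochondria-specific small subunit genes 1 was then called lower and 1 had a positive estimate.

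Among large subunit genes the largest fall was that of Mrpl41 (chr2:24972470-24975098, minus strand, build GRCm38.p6), a protein found only in mitochondrial ribosomes. It was measured at 55.1, 61.7 and 53.8 CPM in the controls and at 34.4, 28.4 and 39.8 CPM in cisplatin. No cisplatin library reached the lowest control. The log2 fold change was -0.74 ± 0.12 (SE, n = 3 per group, edgeR adjusted p = 0.00191).

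Mrpl50 (chr4:49512597-49521083, minus strand), another mitochondria-specific protein, lay at 98.9, 93.2 and 91.0 CPM in the controls and 56.4, 54.6 and 74.4 CPM in cisplatin. Cisplatin replicate 3 stood nearer to the controls than the other two. The log2 fold change was -0.61 ± 0.12 (edgeR adjusted p = 0.00393). Mrpl44 (chr1:79776018-79781445, plus strand) encodes a protein related to the ribonuclease III family. Its 3 controls were nearly equal at 39.9, 40.0 and 40.1 CPM, and cisplatin libraries held 24.8, 24.3 and 30.1 CPM, again without overlap (log2 fold change -0.60 ± 0.09, edgeR adjusted p = 0.00137).

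Mrpl48 (chr7:100545779-100608301, minus strand) was at 47.2, 55.2 and 52.4 CPM in the controls and 31.3, 34.9 and 37.8 CPM in cisplatin. The groups did not overlap, and the log2 fold change was -0.57 ± 0.09 (edgeR adjusted p = 0.00173). Mrpl12 (chr11:120484637-120488754, plus strand) makes the stalk protein to which elongation factors dock, and it is among the 3 most abundant members at a mean of 338 TPM. Its controls held 207, 253 and 217 CPM and its cisplatin libraries 147, 144 and 170 CPM, every one below the controls (log2 fold change -0.56 ± 0.10, edgeR adjusted p = 0.0033). Mrpl42 (chr10:95480805-95501949, minus strand), the second most abundant at 370 TPM, was at 160, 165 and 153 CPM in the controls and at 119, 105 and 123 CPM in cisplatin, also without overlap (-0.46 ± 0.08, edgeR adjusted p = 0.00271).

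Mrpl58 (chr11:115403724-115412674, plus strand) encodes a ribosome rescue factor that releases peptides from stalled ribosomes and is also built into the large subunit. It was measured at 66.5, 79.2 and 68.5 CPM in the controls and 56.4, 55.0 and 58.8 CPM in cisplatin. The fall of -0.33 ± 0.08 (edgeR adjusted p = 0.0127) was lost with library size alone, in all 3 fits of limma to FPKM and without cisplatin replicate 1. Mrpl11, a protein at the base of the stalk, was at 43.5, 46.3 and 44.3 CPM against 41.3, 37.1 and 43.3 CPM. Although its groups did not overlap, its log2 fold change of -0.14 ± 0.08 did not pass (edgeR adjusted p = 0.178).

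Mrps21 (chr3:95862634-95871514, minus strand) showed the largest fall of the small subunit names and is the most abundant member per length. Controls held 150, 164 and 149 CPM and cisplatin libraries 92.6, 87.1 and 106 CPM. The groups were well apart, with a log2 fold change of -0.70 ± 0.09 (edgeR adjusted p = 0.000573).

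Mrps36 (chr13:100735940-100744659, minus strand), whose product tethers a subunit of 2-oxoglutarate dehydrogenase, lay at 67.3, 77.2 and 69.2 CPM in the controls and 50.1, 43.5 and 54.8 CPM in cisplatin, without overlap (-0.53 ± 0.10, edgeR adjusted p = 0.00337). Of the 50-base words of Mrps36, 33.7% are shared with transcripts of other genes. The processed pseudogene Mrps36-ps1 shares more of them than any other gene does. Reads of Mrps36 may therefore be split. Mrps5 (chr2:127587426-127603986, plus strand), a core protein of the small subunit, was at 78.2, 82.8 and 81.0 CPM against 60.5, 55.5 and 59.3 CPM (-0.47 ± 0.07, edgeR adjusted p = 0.00105). Mrps9 (chr1:42851233-42905683, plus strand), also a core protein, was at 43.0, 44.6 and 40.6 CPM against 32.2, 28.8 and 31.9 CPM (-0.46 ± 0.08, edgeR adjusted p = 0.00195). For both, every cisplatin library lay below every control.

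Mrps12, a protein of the decoding centre, was at 50.4, 59.6 and 52.2 CPM in the controls and 43.0, 36.3 and 44.1 CPM in cisplatin. It fell by 0.40 ± 0.10 on the log2 scale (edgeR adjusted p = 0.0129). Mrps34 was at 67.1, 73.0 and 63.4 CPM against 53.2, 55.6 and 58.5 CPM, with a log2 fold change of -0.28 ± 0.08 (edgeR adjusted p = 0.0184). This call was lost with library size alone, in the 3 FPKM fits and without control replicate 2 or cisplatin replicate 1. Mrps25, the least abundant small subunit name at 15.6 TPM, had a change of -0.32 ± 0.08 (edgeR adjusted p = 0.0113), also lost with library size alone, in the 3 FPKM fits and without cisplatin replicate 1. Nr2c2 covers 58.2% of its exon bases on the other strand, and Nr2c2 itself was not called (0.18, edgeR adjusted p = 0.254). Mrps27, a pentatricopeptide repeat protein, overlapped between groups at 36.9, 39.4 and 31.3 CPM against 29.1, 30.9 and 31.9 CPM. Its change of -0.23 ± 0.10 did not pass (edgeR adjusted p = 0.0874), and did so without control replicate 3 (-0.32, edgeR adjusted p = 0.0292).

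Mrps6, a small subunit protein with a bacterial relative, varied most within a group. It held 111, 99.3 and 99.1 CPM in the controls and 86.6, 106 and 62.8 CPM in cisplatin, where replicate 2 lay among the controls. The change of -0.28 ± 0.17 was not called (edgeR adjusted p = 0.233), and without cisplatin replicate 2 it was -0.47 (edgeR adjusted p = 0.0236). Slc5a3, a myo-inositol transporter gene that overlaps Mrps6 on the same strand by 159 exon bases, varied too, from 101 ± 11.3 CPM (SD, n = 3) to 75.4 ± 41.8 CPM.

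**Figure D2:**
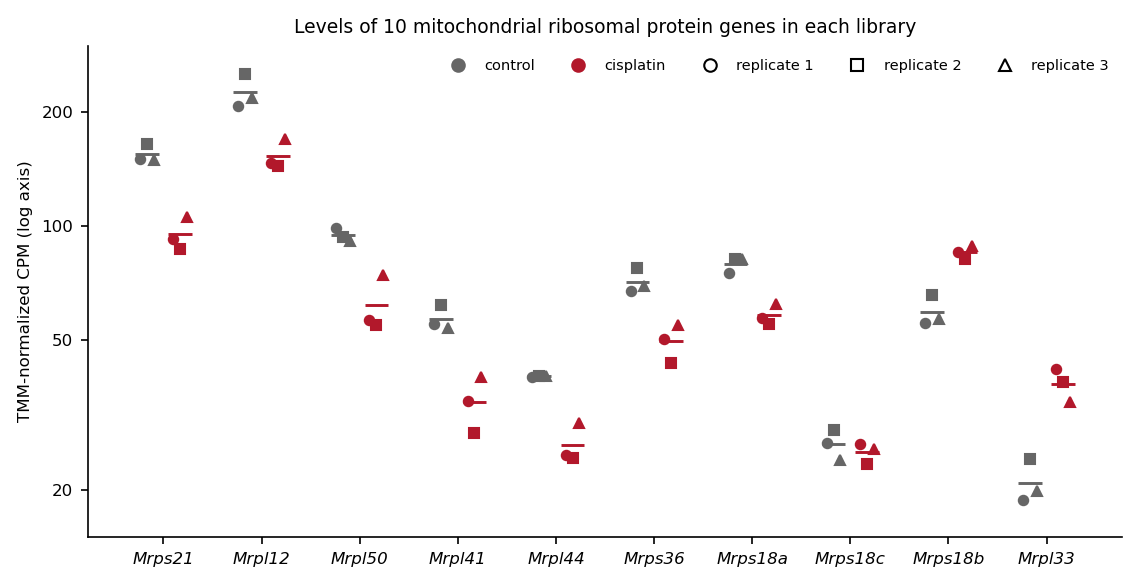
Levels of 10 mitochondrial ribosomal protein genes in each of the 6 libraries, in TMM-normalised CPM on a log axis (y axis). Grey marks are controls, red marks are cisplatin, the shape gives the replicate and the dash the group mean. Mrps18b and Mrpl33 lie higher in all cisplatin libraries, Mrps18c overlaps, and the other 7 lie lower.

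Mrpl33 (chr5:31613951-31622644, plus strand), a small protein of the large subunit with a bacterial relative, went the other way. It was measured at 18.8, 24.2 and 19.9 CPM in the controls and 41.7, 38.8 and 34.2 CPM in cisplatin. Every cisplatin library lay above every control, and the log2 fold change was 0.87 ± 0.12 (edgeR adjusted p = 0.000666). Mrps18b (chr17:35910380-35916440, minus strand) rose from 55.4, 65.8 and 56.8 CPM to 85.3, 81.7 and 88.6 CPM, again without overlap (0.52 ± 0.08, edgeR adjusted p = 0.00166). Both rises were called under all 16 alternatives. Other annotated transcripts overlap both genes. Gm16279 covers 638 exon bases (59.1%) of Mrps18b on the opposite strand, and Gm43809 covers 107 exon bases (22.4%) of Mrpl33 on the same strand. Neither has a row in the table, and the sources used here do not say whether counting used strand, so reads of the pairs cannot be told apart.

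Mrps18b belongs to a family of 3 related proteins that bind at different places. Mrps18c takes the position of the bacterial relative in the small subunit, Mrps18b sits elsewhere in the small subunit, and Mrps18a sits in the large subunit. Mrps18a (chr17:46111004-46128908, plus strand) fell from 75.0, 81.6 and 81.9 CPM to 57.2, 55.0 and 62.0 CPM (-0.45 ± 0.08, edgeR adjusted p = 0.00193). Mrps18c (chr5:100798759-100804467, plus strand) overlapped at 26.6, 28.9 and 24.1 CPM against 26.5, 23.5 and 25.8 CPM (-0.07 ± 0.09, edgeR adjusted p = 0.558). The 3 relatives thus gave a rise, a fall and no call.

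Ratios within a library do not depend on scaling between libraries. In TPM, Mrps18b over Mrps18a was 0.567, 0.622 and 0.534 in the controls and 1.14, 1.12 and 1.09 in cisplatin, a log2 difference of 0.96. Mrps18a was the more abundant of the pair in every control and the less abundant in every cisplatin library. Mrps18b over Mrps18c rose from 0.887, 0.976 and 1.01 to 1.37, 1.46 and 1.45 (log2 difference 0.58). Mrps18c over Mrps18a was 0.639, 0.638 and 0.530 against 0.833, 0.769 and 0.748 (0.38). All 3 ratios were separate between groups, each with a two-sided exact permutation p of 0.1, and 0.1 also after adjustment over the 3. That is the smallest p that 3 against 3 samples can give, so none could pass 0.05.

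At the other end, several members stayed near their control level. Mrpl45, a protein near the tunnel exit that faces the inner membrane, was at 57.7, 64.4 and 58.3 CPM in the controls and 57.5, 65.3 and 60.3 CPM in cisplatin. The groups overlapped fully (0.02 ± 0.08, edgeR adjusted p = 0.847). Mrpl57 (0.03, edgeR adjusted p = 0.788) and Mrpl35 (-0.03, edgeR adjusted p = 0.786) also overlapped, as did Mrps17 (-0.04, edgeR adjusted p = 0.689) and Mrps30 (-0.05, edgeR adjusted p = 0.577). Mrpl19, the least abundant member, was at 0.12 ± 0.09 (edgeR adjusted p = 0.283) and was called higher with library size alone (0.26, adjusted p = 0.0482). Of the 32 members not called, 16 lay within 0.1 of 0 on the log2 scale, and 26 had negative estimates. Under library size scaling the estimates of Mrpl35, Mrps17, Mrps30 and Mrps18c turned positive, while those of Mrpl45 and Mrpl57 stayed positive (0.16 for both), and none of these 6 was called.

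Falls held to different degrees across settings. Of the 44 members that fell, 17 also fell under every alternative but the test against a minimum fold of 1.2, 12 of them large and 5 small subunit names, and 13 fell under all 16. Those 13 were Mrpl12, Mrpl28, Mrpl34, Mrpl41, Mrpl42, Mrpl44, Mrpl48, Mrpl50, Mrps18a, Mrps21, Mrps36, Mrps5 and Mrps9, with Mrpl28 and Mrpl34 named after their values were seen. Across the 78 genes, members with higher levels tended weakly to lower fold changes. Spearman's rho was -0.18 with mean TPM and -0.29 with mean CPM, given as a description, since genes measured in the same 6 libraries are not independent.

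Libraries within a group differed together across members. Control replicate 2 was the highest control in 61 of 78 members. Cisplatin replicate 3 was the highest cisplatin library in 57 of 78, and in 37 of the 44 that fell, while cisplatin replicate 2 was the lowest in 58. These ranks are by TMM-normalised CPM and depended on the scaling. As a share of all counts the members held 0.427%, 0.411% and 0.420% in cisplatin replicates 1 to 3. Their TPM sums were 7860, 7617 and 7529, with replicate 3 the lowest. Cisplatin replicate 3 also had the lowest Havcr1, at 420 CPM against 1060 and 1449 CPM in cisplatin replicates 1 and 2. It held the most of 10 proximal tubule markers in sum, at 18012 CPM against 11679 and 9573 CPM. Of 6 thick ascending limb and distal tubule markers it held the least, at 1811 CPM against 2192 and 3402 CPM. Without cisplatin replicate 3, 49 members fell in place of 44, while 24.5% of all genes tested were lower in place of 22.2%.

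Cell type markers moved with the comparison as well. Of 10 proximal tubule markers 8 were lower, with a median log2 fold change of -1.36, and their summed level went from 56325 to 61945 CPM in the controls to 9573 to 18012 CPM in cisplatin. All 6 thick ascending limb and distal tubule markers were lower (median -1.73; 7523 to 9085 CPM against 1811 to 3402 CPM). In the other lists, collecting duct markers gave 3 lower and 1 higher of 6, endothelial markers 5 lower and 1 higher of 6, podocyte markers 3 higher of 4, and fibroblast markers 1 higher of 5. Scaled by library size, collecting duct markers gave 2 lower and 1 higher and endothelial markers 2 lower and 1 higher, and the counts of all other marker lists were the same as with TMM. Macrophage markers gave 2 lower and 2 higher of 7, with summed ranges of 119 to 155 CPM and 146 to 181 CPM, which overlapped. Neutrophil markers (2 higher of 4 tested, 5.62 to 8.20 CPM against 6.81 to 8.12 CPM) and lymphocyte markers (2 lower of 4 tested, 7.78 to 17.3 CPM against 3.89 to 5.24 CPM) were low in all libraries. The 5 red blood cell markers were lower, at 56.6 to 716 CPM in the controls and 0.355 to 0.564 CPM in cisplatin. The part of these shifts in the ribosomal protein changes was not tested.

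The ribosomal protein genes were set beside a pair of other large gene families in the same libraries. Cytosolic ribosomal protein genes, which serve the ribosomes outside mitochondria, gave 31 higher and 2 lower of 81 tested, with a median log2 fold change of 0.22 (61 higher, 1 lower and 0.36 with library size alone). Genes with subunit names of complex I, the largest respiratory chain complex, gave 33 lower of 39 tested and a median of -0.46 (26 lower, 1 higher and -0.33 with library size alone). That list was taken by Nduf names alone, without assembly factors. It includes Ndufa4 and Ndufa4l2, and the place of each product in the complex was not checked. The mitochondrial to cytosolic ribosomal count ratio was 0.187, 0.180 and 0.191 in the controls and 0.128, 0.123 and 0.138 in cisplatin, a log2 difference of -0.52 with no overlap. Over complex I the ratio was 0.570, 0.581 and 0.583 in the controls and 0.645, 0.688 and 0.637 in cisplatin, higher in every cisplatin library (log2 difference 0.18). In TPM these differences were -0.51 and 0.16. Relative to cytosolic ribosomal proteins the members were thus lower, and relative to complex I higher, in all 3 cisplatin libraries, by ratios that scaling between libraries cannot move. Neither ratio was given a p-value, since 3 against 3 samples cannot go below an exact p of 0.1.

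**Figure D3:**
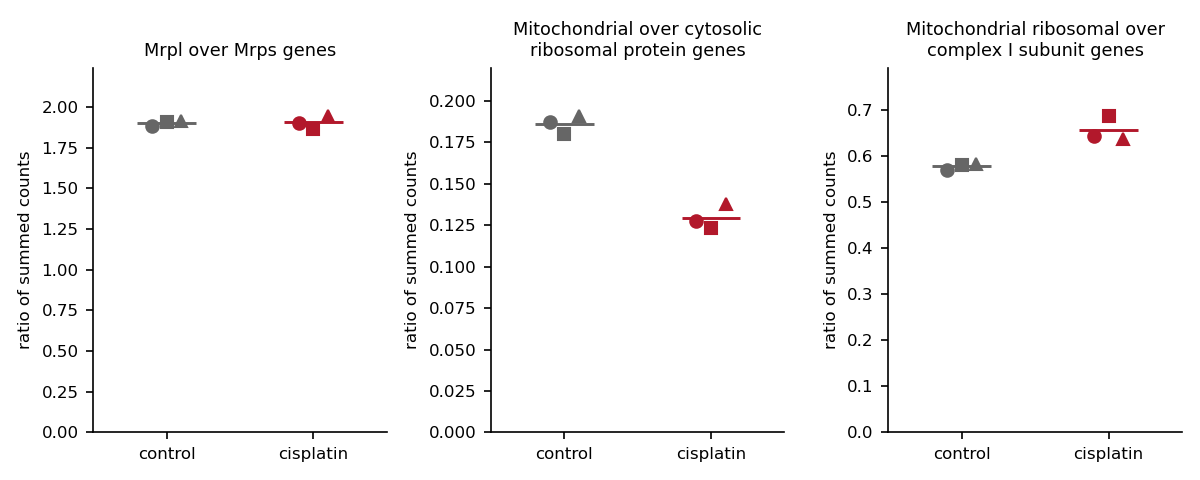
Ratios of summed estimated counts in each library: Mrpl over Mrps genes (left), all mitochondrial over cytosolic ribosomal protein genes (middle), and mitochondrial ribosomal over complex I subunit genes (right). The shape gives the replicate (circle 1, square 2, triangle 3), the line is the group mean, and all axes start at 0. The left ratio overlaps between groups near 1.9, the middle one is lower in all cisplatin libraries, and the right one is higher.

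Genes that work with the mitochondrial ribosome were described by list. Of 5 ribosome proteins with other names, Dap3, Gadd45gip1, Aurkaip1 and Ptcd3 fell and Chchd1 was not called (0.15, edgeR adjusted p = 0.249). Ptcd3, a pentatricopeptide repeat protein of the small subunit, changed most, from 43.5 ± 1.05 to 32.7 ± 2.70 CPM (SD, n = 3; log2 fold change -0.41, edgeR adjusted p = 0.00398), and Aurkaip1 changed by -0.30 (edgeR adjusted p = 0.0226). Of 27 assembly and ribosomal RNA modification genes 12 fell and none rose, with a median of -0.29. The largest falls were those of Mettl15, a methyltransferase for the small subunit RNA (-0.65, edgeR adjusted p = 0.00773), and Mterf4, which brings a methyltransferase to the large subunit (-0.60, edgeR adjusted p = 0.00793). With library size alone, 1 of the 5 and 7 of the 27 fell, and 1 gene rose in each list.

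Of the translation factors 10 of 16 tested fell and none rose, with a median of -0.41 (8 lower and -0.28 with library size alone). Gfm1, the elongation factor that moves the ribosome along its messenger, was at 133, 114 and 122 CPM in the controls and 70.8, 70.8 and 82.1 CPM in cisplatin (-0.72, edgeR adjusted p = 0.000501). Tufm, the elongation factor that delivers aminoacyl-tRNA, was at 205, 209 and 187 CPM against 135, 128 and 128 CPM (-0.62, edgeR adjusted p = 0.00045). Neither overlapped between groups. Whether the lists differ from the ribosomal proteins was not tested.

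Of 20 genes for charging mitochondrial tRNAs 9 fell, none rose and the median was -0.26 (7 lower with library size alone). With TMM factors, this list held the only 2 genes of the translation machinery lists that fell by 2-fold, both named by their size. Gatb, a subunit of the enzyme that forms glutaminyl-tRNA, was at 79.2, 76.7 and 75.4 CPM in the controls and 30.6, 29.3 and 43.9 CPM in cisplatin (-1.16, edgeR adjusted p = 0.000663). Fars2, which charges phenylalanyl-tRNA, went from 63.3 ± 3.40 to 30.3 ± 3.61 CPM (SD, n = 3; -1.06, edgeR adjusted p = 9.9e-05). With library size alone Gatb was at -1.03 and Fars2 at -0.93, short of 2-fold. Of 10 genes for mitochondrial DNA transcription and maintenance 5 fell and none rose (1 fell with library size alone). Tfam, which packages mitochondrial DNA and starts its transcription, changed by -0.45 (edgeR adjusted p = 0.00255), and the nuclease gene Mgme1 by -0.40 (edgeR adjusted p = 0.0232).

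Regulators of mitochondrial biogenesis were divided. Of the 10 listed, 4 were lower, namely the coactivators Ppargc1a (-0.37, edgeR adjusted p = 0.0462) and Ppargc1b (-0.72, adjusted p = 0.00146), the nuclear receptor Esrra (-0.39, adjusted p = 0.0143) and Gabpa (-0.34, adjusted p = 0.0118). Rises were found for Myc (2.07, edgeR adjusted p = 0.00461), for the coactivator Pprc1 (1.10, adjusted p = 0.000463) and for Gabpb1 (0.53, adjusted p = 0.00114). Gabpa and Gabpb1 encode the DNA-binding and the activating chain of one factor, and they were called in opposite directions. Nrf1 (0.12), Sp1 (0.12) and Yy1 (-0.0001) were not called, with edgeR adjusted p of 0.343, 0.181 and 0.999. Ppargc1a overlapped between groups. With library size alone 2 of the 10 were lower and 4 higher.

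**Figure D4:**
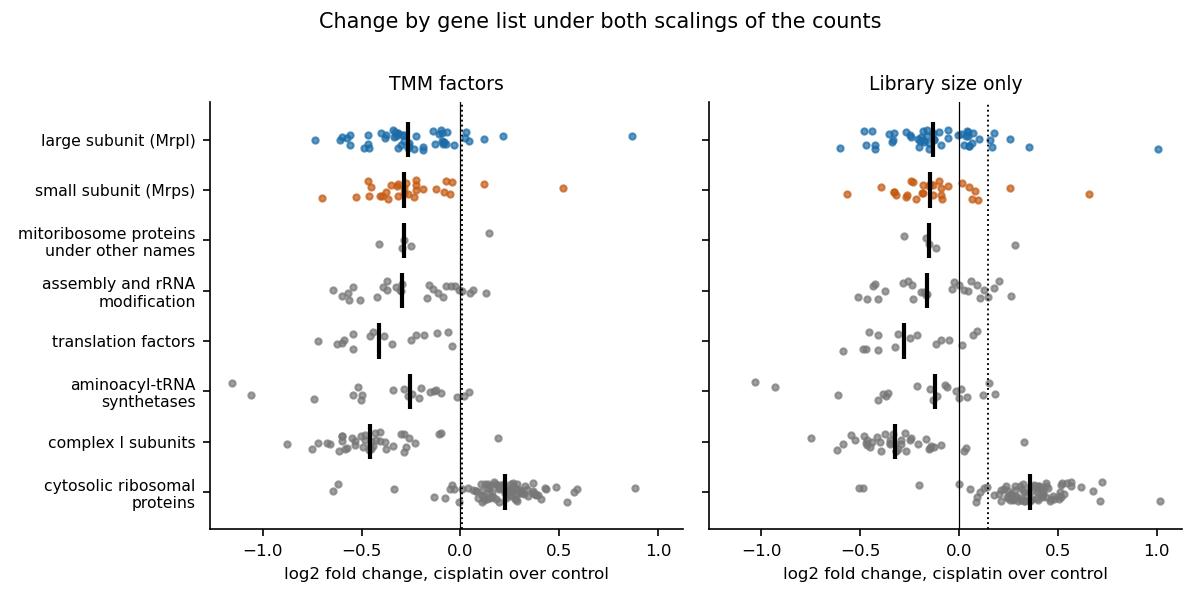
Log2 fold change, cisplatin over control (x axis), of each tested gene (points) in 8 gene lists, with TMM factors (left) and library size alone (right). Thick bars are list medians and the dotted line is the median of all genes tested, at 0.01 on the left and 0.14 on the right. The medians of both subunits lie below the dotted line in both panels, that of complex I lies further below and that of the cytosolic ribosomal proteins above.

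Known regulators of genes for mitochondrial proteins include NRF1, the ETS factor GABP, and YY1. Their short motifs were searched on both strands in the promoter windows of RefSeq (build GRCm38.p6), from 250 bases before to 50 bases after each start, which were at hand for 69 of the 78 members. The ETS motif CCGGAAG was found for 26 members (37.7%), against 9.93% of all 27025 genes with a window and 14.8% of the 15075 of them in the deposited table. The NRF1 motif GCGCATGCG was found for 7 (10.1% against 1.95% and 2.97%). A shorter motif searched for NRF1, TGCGCA, reads the same on both strands and is not contained in GCGCATGCG. TGCGCA was found for 21 members (30.4% against 8.79% and 12.5%), and the YY1 motif AAGATGGCG for 8 (11.6% against 1.64% and 2.47%). NRF1 (GCGCATGCG) or ETS matches were found for 30 members (43.5% against 11.5% and 17.2%). Of these 30, 16 fell, with a median log2 fold change of -0.25. Of the 39 without either, 24 fell, with a median of -0.31.

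The windows of 4 members with an NRF1 or ETS match and the largest called changes are printed here because they hold both members that rose and a pair that fell. They run 5′ to 3′ on the gene's strand, with the matched letters in capitals (CTTCCGG is the ETS motif and CGCATGCGC the NRF1 motif on the other strand). Mrpl33 lies at chr5:31613701-31614000 (plus strand), Mrps18b at chr17:35916391-35916690, Mrps21 at chr3:95871465-95871764 and Mrpl48, by one of its 4 listed starts, at chr7:100583081-100583380 (all minus strand).
Mrpl33: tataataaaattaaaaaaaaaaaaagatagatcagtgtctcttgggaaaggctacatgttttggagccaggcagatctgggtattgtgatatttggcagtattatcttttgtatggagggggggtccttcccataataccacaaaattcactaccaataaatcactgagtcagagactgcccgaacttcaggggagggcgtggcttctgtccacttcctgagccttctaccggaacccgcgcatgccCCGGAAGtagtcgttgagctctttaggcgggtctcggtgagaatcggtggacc
Mrps18b: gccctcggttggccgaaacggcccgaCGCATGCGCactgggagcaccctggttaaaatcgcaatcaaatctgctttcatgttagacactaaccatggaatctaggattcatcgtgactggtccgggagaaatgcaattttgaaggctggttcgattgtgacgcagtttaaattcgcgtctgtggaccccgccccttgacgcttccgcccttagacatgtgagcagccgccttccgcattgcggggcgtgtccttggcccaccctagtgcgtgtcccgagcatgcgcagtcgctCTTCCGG
Mrps21: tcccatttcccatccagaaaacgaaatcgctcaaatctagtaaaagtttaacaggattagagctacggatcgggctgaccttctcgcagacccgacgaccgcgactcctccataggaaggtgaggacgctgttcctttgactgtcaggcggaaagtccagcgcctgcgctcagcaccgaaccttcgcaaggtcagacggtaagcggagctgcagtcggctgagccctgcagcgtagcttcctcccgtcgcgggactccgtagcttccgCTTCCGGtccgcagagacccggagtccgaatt
Mrpl48: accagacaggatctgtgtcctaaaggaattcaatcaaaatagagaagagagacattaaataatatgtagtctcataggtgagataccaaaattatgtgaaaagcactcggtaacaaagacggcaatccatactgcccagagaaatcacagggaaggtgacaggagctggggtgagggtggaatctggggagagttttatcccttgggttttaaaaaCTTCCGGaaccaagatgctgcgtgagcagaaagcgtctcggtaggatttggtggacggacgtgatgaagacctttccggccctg
The ETS match began at position -3 relative to the start in Mrpl33, at 43 in Mrps18b, at 18 in Mrps21 and at -34 in Mrpl48. Mrps18b also had an NRF1 match at -224. Members without an NRF1 or ETS match were passed over, so a match in the windows of genes that rose and fell follows from that choice. A match is a run of letters and shows no binding.

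In the GENCODE annotation 26 members overlap an exon of another gene, and 28 share no 50-base word with the transcripts of another gene. For 13 members over 20% of such words were shared and for 5 over 50%. Those 5 were Mrpl53 (100%), Mrps25 (73.9%), Mrps18b (56.0%), Mrps34 (52.4%) and Mrpl23 (51.7%). Values of those 13 members are uncertain, because the counting could have split or lost their reads.

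Some of these genes share their start region with a neighbour on the other strand. How often other genes do was not counted. A neighbour starting within 1000 bases was annotated for 27 members, and 25 member-neighbour pairs had a tested neighbour. Of the neighbours 6 were lower, 4 higher and 15 not called, with a median log2 fold change of 0.01. Among all genes tested, 22.2% were lower and 23.1% higher. The members Mrpl46 and Mrps11 are neighbours of each other and were counted once from each side, so Mrpl46 is itself among the 6 lower neighbours. In 3 pairs the member and its neighbour both fell. The neighbour of Mrpl41, the lipase gene Pnpla7, fell (-0.47, edgeR adjusted p = 0.00217). Mrpl48 and Rab6a, a Golgi trafficking gene, were called in opposite directions (-0.57 and 0.33, edgeR adjusted p = 0.00489 for Rab6a), and their exons overlap by 403 bases on opposite strands. Mrps18b and Ppp1r10, which start 756 bases apart, had changes of 0.52 and 0.45, the latter not called (edgeR adjusted p = 0.117). Mrpl50 and Zfp189 had changes of -0.61 and 0.47, the latter not called (edgeR adjusted p = 0.0776). Mrps12 starts 147 bases from Sars2, a mitochondrial seryl-tRNA synthetase gene that was not called (-0.21, edgeR adjusted p = 0.0863). One pair joins both subunits. Mrpl46 and Mrps11 start 42 bases apart, and Mrpl46 fell (-0.40, edgeR adjusted p = 0.0107) while Mrps11 was not called (-0.19, edgeR adjusted p = 0.138), a difference that was not tested.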

How the data were processed

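Total RNA of wild-type mouse kidneys was sequenced in 3 control and 3 cisplatin samples. The reads were aligned with HISAT to GRCm38.p6, per the submitters' processing notes, while version, annotation, counting program and strandedness were not given in the sources used here. One deposited table held estimated counts, FPKM and TPM per gene and library, per the file headers. Deposited estimated counts carried no normalisation (66.2% to 67.7% were whole) and were rounded before testing. Deposited FPKM is scaled to library size and length, and deposited TPM to a fixed total. Control columns are named by letters and a number only and were taken as the control samples because the remaining columns name cisplatin. Deposited FPKM served an alternative test and TPM entered no test beyond 3 ratios.

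Genes were filtered with filterByExpr (minimum count 10), leaving 14392, scaled with TMM and tested with the robust two-sided quasi-likelihood test of edgeR 4.0.16 (R 4.3.3), group as the only term, with Benjamini-Hochberg adjustment over all genes tested. The procedure was tested on simulated counts in which equal numbers of genes rose and fell. That setting cannot speak to the choice between TMM factors and library size. The biological coefficient of variation was 0.12. Precision per gene is limited by the 3 libraries per group. Alternatives were DESeq2 1.42.0, limma 3.58.1 on log2(FPKM + 1) or log2(FPKM + 0.1), other size factors, other filters, a minimum fold of 1.2, a replicate block and leaving out each library. Same-numbered samples did not deviate together (correlations 0.03, -0.14 and -0.14), so numbers were not taken as pairs. Exon overlaps and shared 50-base words (on the transcripts) came from GENCODE M21, positions and promoter windows from RefSeq, both of GRCm38.

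The members, gene lists and tests were chosen with earlier results of these data known. Named were members with a special role, the 4 largest called falls and rises, the 3 smallest changes, the 2 highest and 1 lowest in TPM of each subunit, and of each other list the 2 called genes with the largest change. Comparison families and cell type markers are given as counts and sums.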

Additional observations from a re-analysis of the deposited data

How the results depend on the processing

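Across the 16 alternatives the members' falls outnumbered their rises. The count of 44 falls and 2 rises was 45 and 2 with DESeq2's size factors, 44 and 2 with the DESeq2 test and without a filter, and 45 and 2 with the stricter filter. It was 20 and 5 with library size alone, 20 and 4 with limma on log2(FPKM + 1) and on log2(FPKM + 0.1), 18 and 3 on FPKM without a filter, and 14 and 2 against a minimum fold of 1.2. Large subunit falls were 13 and small subunit falls 7 under library size and under both FPKM pseudocounts, 13 and 5 on FPKM without a filter, and 9 and 5 against the minimum fold. The subunit medians were -0.13 (large) and -0.15 (small) under library size and all FPKM fits. These settings lack the composition factors, whose log2 difference between groups was 0.14, except the minimum fold, which asks for a larger change. Over all genes called, the lower and higher shares were 22.2% and 23.1% with TMM, and 15.8% and 32.2% with library size alone.

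With the replicate block 36 members fell and 2 rose, with 22 large and 14 small subunit falls, and of the named members none changed its call. Over all genes tested, 19% were then lower and 19.6% higher. The numbers were not taken as pairs, and 1 of the 3 controls correlated best with the cisplatin sample of its own number. Leaving out each library in turn gave 31 to 49 falls and 2 to 3 rises, 21 to 31 large and 10 to 18 small subunit falls, and medians of -0.32 to -0.23 for each subunit. The fewest falls came without cisplatin replicate 1, where 15.6% of all genes were lower. The most came without cisplatin replicate 3, where 24.5% of all genes were lower.

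Signs turned only for named members that were not called. With library size and the 3 FPKM fits, in this order, Mrps18c was at 0.0645, 0.0646, 0.0656 and 0.0646, Mrps30 at 0.0812, 0.0785, 0.0814 and 0.0785, Mrpl35 at 0.103, 0.0935, 0.101 and 0.0935, and Mrps17 at 0.0938, 0.0802, 0.0818 and 0.0802. On leaving out 1 library, log2 fold changes ranged from -0.0308 to 0.0717 for Mrpl45, from -0.0266 to 0.0911 for Mrpl57, from -0.0759 to 0.0319 for Mrpl35 and from -0.0799 to 0.0152 for Mrps17. The cause was not tested. The calls of Mrpl58, Mrps25 and Mrps34 were lost with library size alone, in all 3 FPKM fits, against the minimum fold and without cisplatin replicate 1, and that of Mrps34 also without control replicate 2. The call of Mrps12 was lost on FPKM without a filter and against the minimum fold.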
